A study of Homo sapiens with 7 samples.

Results

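The elements described here are 321 test sequences that drove strong reporter expression in both orientations, out of 68115 numbered sequences listed. The assay was a massively parallel reporter assay (MPRA), delivered by lentivirus to HepG2, an established human liver carcinoma line. Each test element of 170 nucleotides stood upstream of a minimal promoter and a transcribed barcode, and the constructs integrated into the genome of the cells. The orientations were amplified separately and then combined, so a sequence exists as a forward and a reverse copy with different barcodes. The data hold 3 DNA libraries (integrated barcodes), 3 RNA libraries (expressed barcodes) and 1 plasmid library that ties barcodes to copies. The DNA and RNA libraries came from untreated cells of this line harvested 48 hours after infection. The label of the plasmid library also names HepG2 cells. No group carried a further treatment or genotype. Whether replicates are separate infections is not said in the labels, so p-values measure only how these libraries vary, which may reflect technical error alone.

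Activity was expressed as S, the log2 ratio of a copy's share of all RNA counts to its share of all DNA counts in the same replicate. An S of 2 is a 4-fold excess of RNA. Members were chosen on replicate 1 alone. Both copies had to reach at least 50 DNA counts and an S of at least 2.0 there. Of the sequences listed, 65106 met the DNA minimum in both copies and 321 of these (0.493%) also met the S threshold, giving 642 member copies. Values of replicate 1 are therefore a description of the choice. Replicates 2 and 3 took no part in it, but they carry the same barcodes, so an effect of a copy's barcodes would repeat in them.

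Enhancers were first recognised by their ability to raise transcription from a promoter whichever way round they were inserted. Promoters, in contrast, have a direction, although many also act as enhancers in reporter assays. Testing an element in both orientations within a reporter assay separates activity that depends on direction from activity that does not. In hepatocyte-like cells such as HepG2, many active elements carry sites for liver-enriched transcription factors. No bases, coordinates or element classes were tied to the sequence numbers in the tables used here, so members are given by number. What the libraries read for each copy is its set of barcodes of 15 bases. The alphabetically first barcodes of Seq_68084, the member with the highest S in its weaker orientation in replicate 1, are shown because they are the molecules counted as RNA and DNA; no capitals are used.
Seq_68084_fwd: aaaactagagactca
Seq_68084_fwd: aacccccatactctc
Seq_68084_rev: aaagaataacattac
Seq_68084_rev: aaagagaaccaaggc
None of the 12452483 barcodes was listed for more than 1 copy, so the forward and reverse values of a sequence shared no barcode.

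The DNA libraries held 34860651 to 44258011 counts and the RNA libraries 108324310 to 114738370. The member copies made up 0.473% of all copies listed. They took 3.61% to 3.72% of the counts of an RNA library, against 0.548%, 0.569% and 0.705% of DNA replicates 1, 2 and 3. A member copy had 40 to 1347 DNA counts and 517 to 42876 RNA counts in a library, so single values rested mainly on DNA counts for their precision.

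One DNA library stood apart at these elements. DNA replicate 3 gave member copies a larger share of its counts than DNA replicate 2 did, with a median log2 ratio of 0.27 and an excess in 563 of 642 member copies (87.7%). Over all copies that met the DNA minimum, the same ratio had a median of 0.00, and 50.02% were above 0. The RNA libraries showed no such shift, since the median log2 ratio of RNA replicate 3 to RNA replicate 2 was -0.02 at members. The DNA excess was larger at stronger elements. It was 1.17-fold for the 129 members with a weaker-orientation S of 2 to 2.25 in replicate 1, 1.19-fold for the 77 at 2.25 to 2.5, 1.27-fold for the 75 at 2.5 to 3 and 1.38-fold for the 40 at 3 or above. Below the threshold it was 1.11-fold for the 789 sequences at 1.5 to 2 and 0.99-fold for the 48967 below 0. These bins used neither library compared. The cause of the excess was not tested. It enters S in replicate 3 with the opposite sign, and S was lower in replicate 3 than in replicate 2 for 547 of 642 member copies (85.2%), by 0.31 at the median.

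Activity repeated in the replicates that the rule had not used. In replicate 1, which chose them, the member copies had a median S of 2.54. In replicate 2 the median was 2.47, with quartiles of 2.20 and 2.85 for forward copies and of 2.17 and 2.81 for reverse copies. In replicate 3 it was 2.22, with quartiles of 1.95 and 2.49 forward and of 1.92 and 2.49 reverse. With RNA replicate 3 set against DNA replicate 2 instead, the median was 2.45, so the fall in replicate 3 came with the DNA library and not with the RNA library. The lowest S of any member copy in these replicates was 1.11 and the highest 4.51. For comparison, the median of all sequences meeting the DNA minimum was -0.35 for forward and -0.57 for reverse copies in replicate 2.

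Both orientations again reached an S of 2 in 247 members (76.9%) in replicate 2 and in 170 (53.0%) in replicate 3. The same was true of 0.47% of all 63798 sequences with the DNA minimum in replicate 2 and of 0.293% of 63739 in replicate 3. Another 63 members reached it in 1 orientation in replicate 2 and 104 in replicate 3, which leaves 11 and 47 that did so in neither. With RNA replicate 3 over DNA replicate 2, the count was 250. Applied to replicate 2, the rule found 300 sequences, of which 247 were members (76.9% of the members and 82.3% of that list). Applied to replicate 3, it found 187, of which 169 were members (52.6% and 90.4%). The rule held on all 3 replicates for 164 sequences and on at least 1 for 383.

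Whether a member stayed above the threshold depended on how far above it had been. All 40 members with a weaker-orientation S of 3 or above in replicate 1 kept both orientations above 2 in both other replicates. So did the 75 members at 2.5 to 3 in replicate 2, and 68 of them in replicate 3. Of the 77 at 2.25 to 2.5, 61 kept it in replicate 2 and 41 in replicate 3. Of the 129 at 2 to 2.25, 71 and 21 did. Close to the threshold most sequences on either side fell short in a later replicate, and members repeated at a somewhat higher rate than non-members. Of the 52 members with a weaker S under 2.1, 20 were above 2 in both orientations in replicate 2, and of the 77 sequences with a weaker S of 1.9 to 2, 21 were. In replicate 3 these counts were 7 and 6. Just inside the threshold lay Seq_2227, Seq_24558 and Seq_20502, with a weaker S of 2.00, 2.01 and 2.01 in replicate 1. Just outside lay Seq_68085, Seq_32901 and Seq_24416, all 3 at 2.00 after rounding. The weaker orientation of Seq_68085 was later above that of each of those inside, at 2.71 forward and 2.27 reverse in replicate 2 and at 2.10 and 2.16 in replicate 3.

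Each copy was tested for RNA against DNA with edgeR's quasi-likelihood test on replicates 2 and 3 alone, over all 134507 copies with at least 10 counts in both DNA libraries. A call means a Benjamini-Hochberg adjusted p under 0.05 for a difference from equal shares of RNA and DNA. A call of at least 4-fold also needs an estimated log2 fold change of 2 or more. The p does not test that size. All 642 member copies passed the count filter and all were called higher in RNA, where 23% of all copies tested were. At least 4-fold higher calls covered 511 member copies (79.6%), against 0.616% of all copies tested. Both orientations were called at least 4-fold higher for 216 members (67.3%), against 0.362% of the 66808 sequences tested. The fold is measured from equal shares of the library totals and not from inactive elements, and the median log2 fold change of all copies tested was -0.45. Member copies ranged from 1.16 to 4.11 with a median of 2.32 and a median standard error of 0.12. The count of members with both copies at least 4-fold higher was 246 without DNA replicate 3 and 171 without DNA replicate 2.

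The strongest members, ranked by the weaker orientation in replicate 1, were Seq_68084, Seq_68079, Seq_27637, Seq_68060, Seq_68078, Seq_53999, Seq_53998, Seq_10019, Seq_68086 and Seq_68056. Seq_68084 forward had 7.57, 7.15 and 13.5 CPM (counts scaled to a library total of 1000000) in DNA replicates 1 to 3 and 115, 122 and 122 CPM in RNA. Its reverse copy had 10.6, 11.3 and 18.6 CPM in DNA and 173, 161 and 175 CPM in RNA. RNA lay far above DNA in every replicate, with no overlap, and in both copies DNA replicate 3 was the highest of the DNA values. In replicates 2 and 3 the log2 fold change was 3.56 (SE 0.19) forward and 3.49 (SE 0.16) reverse, or 11.8-fold and 11.3-fold, with adjusted p-values of 1.32e-10 and 8.00e-16 by edgeR.

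Seq_68079 had the highest S of any member copy in replicate 1, at 4.48 as the forward copy. That copy had 6.73, 7.41 and 11.7 CPM in DNA against 150, 169 and 161 CPM in RNA. The reverse copy was more abundant, with 21.9, 20.998 and 37.6 CPM in DNA against 321, 390 and 376 CPM in RNA. RNA values of a copy lay within a narrow band while its DNA value was again highest in replicate 3. Tested on replicates 2 and 3, RNA was 17.3-fold above DNA forward and 13.1-fold reverse (edgeR adjusted p = 1.60e-17 and 9.06e-15).

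Seq_27637 was the strongest member outside the numbers 68050 to 68089. Its forward copy had 8.70, 8.15 and 14.7 CPM in DNA and 125, 142 and 132 CPM in RNA, and its reverse copy 11.4, 12.1 and 20.8 CPM in DNA and 207, 222 and 193 CPM in RNA. Its S was 4.13 forward and 4.19 reverse in replicate 2, and 3.17 and 3.21 in replicate 3, so the orientations lay within 0.1 of each other in both.

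At the other end, the weakest repeat was Seq_17401. Its forward copy had an S of 2.66 in replicate 1 on exactly 50 DNA counts, the minimum of the rule, and of 1.11 and 1.21 in replicates 2 and 3 on 89 and 77 DNA counts. Its reverse copy, at 258 and 235 DNA counts, had 1.81 and 1.93. In all, 8 members were below 2 in both copies in both later replicates. The others were Seq_310, Seq_13834, Seq_16580, Seq_18349, Seq_18396, Seq_19431 and Seq_68081. Apart from Seq_17401 forward and Seq_19431 forward, with 1.42 and 1.25, their copies stayed at 1.56 or above.

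The members were balanced between orientations. The median forward minus reverse S was -0.01 in replicate 2 and -0.01 in replicate 3, and the forward copy was the higher in 156 and 157 of 321 members. Over all sequences meeting the DNA minimum, the median was 0.18 and 0.19, and the forward copy was the higher in 64.7% and 65.8%. The difference lay within 0.5 log2 units for 244 members (76.0%) in replicate 2 and 263 (81.9%) in replicate 3, against 65.5% and 66.3% of all. A difference of at least 1 was seen in 8 and 4 members (2.49% and 1.25%), against 6.65% and 6.05% of all. The threshold on both copies in replicate 1 limits how far they can lie apart, so part of this narrow spread was set by the choice. It was the same for both orientations, so it also bears on the median. Among all sequences meeting the DNA minimum, 581 forward and 569 reverse copies had an S of 2 or more in replicate 2. Of these, 279 and 278 were member copies. In replicate 3 the counts were 361 and 330, of which 224 and 220 were member copies. The forward lead in these counts thus came mostly from copies that were not members.

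The difference between orientations was tested as the interaction of molecule with orientation in edgeR, on replicates 2 and 3 and over 66808 sequences. Forward and reverse counts of a library entered as separate columns and were not paired. Variation of a library shared by both copies therefore stayed in the error, and a missing call does not show equal orientations. Among the members, the forward copy was called the higher in 25 (7.79%) and the reverse copy in 25 (7.79%), and the remaining 271 (84.4%) had no call. Among all sequences tested, 16.5% were called forward and 4.84% reverse. Calls over all sequences were thus forward in 77.4%. The median difference was -0.00 among members (lower quartile -0.22, upper quartile 0.23), where the standard error of a single difference was 0.18 at the median. Among all sequences the median was 0.19. Called differences of members had a median size of 0.64. These counts depended on the libraries and the tool. Both were lower with 1 RNA library left out and higher with 1 DNA library left out. They were 15 forward and 24 reverse by DESeq2. With all 3 replicates, which include the one of the rule, they were 36 and 32. Since the orientations have separate barcodes, a called difference and an effect of the barcodes cannot be told apart for a single sequence.

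Sequences strong in a single orientation of replicate 1 give the contrast. There were 236 with an S of 2 or more as the forward copy only and 259 as the reverse copy only. In replicate 2 the first had a median S of 2.01 forward and 1.61 reverse, and the second of 1.65 forward and 2.01 reverse. Their weaker orientation was thus active as well at the median, but its lowest S was -0.51 and -0.41. Both orientations reached 2 in replicate 2 for 15 of the forward-only and 30 of the reverse-only sequences (6.36% and 11.6%). The interaction test called 86 of the 236 forward and 2 reverse, and 97 of the 259 reverse and none forward (0 of 259). These sets were chosen on a difference of replicate 1 and the members were not, so the sets were bound to differ in this measure.

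The 5 members with the largest forward excess in replicate 1 were Seq_50577, Seq_17674, Seq_68071, Seq_16786 and Seq_68072, and the 5 with the largest reverse excess were Seq_23357, Seq_23606, Seq_2158, Seq_26973 and Seq_13017. Seq_50577 kept its difference. Its forward copy had 18.1, 18.3 and 37.7 CPM in DNA and 370, 359 and 355 CPM in RNA, and its reverse copy 25.1, 29.3 and 33.9 CPM in DNA and 147, 151 and 144 CPM in RNA. The forward copy thus gave more RNA in every replicate, from less DNA in replicates 1 and 2 and slightly more in replicate 3. RNA over DNA on the log2 scale was 3.67 (SE 0.25) for the forward copy with 210 barcodes and 2.22 (SE 0.12) for the reverse copy with 263. The interaction was 1.45 (SE 0.29) with an edgeR adjusted p = 0.00132. The difference was 1.96 without DNA replicate 3 and 1.12 without DNA replicate 2.

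Of the other 9, Seq_16786, Seq_2158, Seq_26973 and Seq_13017 were also called in their original direction on replicates 2 and 3. Seq_16786 had 3.10 forward and 2.40 reverse in replicate 2 and 2.68 and 2.00 in replicate 3, and its interaction was 0.68 (SE 0.17) with an edgeR adjusted p = 0.00399. It was not called without RNA replicate 3 (adjusted p = 0.0567 by edgeR). Seq_13017 had 1.69 and 2.496 in replicate 2 and 1.56 and 2.07 in replicate 3, and its interaction was -0.65 (SE 0.17) with an edgeR adjusted p = 0.00569. It was not called without RNA replicate 2 (adjusted p = 0.0669 by edgeR). Seq_26973 (-0.55) was not called without RNA replicate 2 (adjusted p = 0.0979 by edgeR) or RNA replicate 3 (0.127). Seq_2158 (-0.56) was not called without any single library of the 4 (adjusted p of 0.0799 to 0.0974 by edgeR).

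The remaining 5 were not called, although for all of them but Seq_17674 this depended on the setting. Seq_68072 stood at 4.25 forward and 3.19 reverse in replicate 2 and at 3.28 and 2.76 in replicate 3, and its interaction was 0.72 (SE 0.26) with an edgeR adjusted p = 0.0524. It was called with TMM sizes (adjusted p = 0.0473 by edgeR), a filter of 50 DNA counts (0.0354), at least 20 barcodes (0.0420) or all 3 replicates (0.0361), and by limma (0.0160 and 0.0223 with pseudocounts of 1 and 0.1). It was not called with RLE sizes (0.0507), no DNA filter (0.0603), DESeq2 (0.313) or 1 RNA library left out (0.131 and 0.133). It was also called without DNA replicate 3 (1.05, adjusted p = 3.15e-05 by edgeR) and without DNA replicate 2 (0.51, adjusted p = 0.00751). Seq_68071 had a difference of 0.42 (adjusted p = 0.164 by edgeR), and 0.51 (adjusted p = 0.0173) without DNA replicate 3. Seq_23357 rested on uneven DNA counts, at 131 and 91 forward and 131 and 221 reverse in replicates 2 and 3. Its difference of -0.61 (adjusted p = 0.0555 by edgeR) was -1.28 without DNA replicate 3 (adjusted p = 0.000656) and 0.00 without DNA replicate 2. Seq_17674 and Seq_23606 had 0.33 and -0.33 (adjusted p = 0.304 and 0.302 by edgeR). Seq_23357 was called with a filter of 50 DNA counts (adjusted p = 0.0490 by edgeR) and by limma with a pseudocount of 1 (0.0161). With all 3 replicates, which include the one that ranked them, Seq_68071 (0.61) and Seq_23606 (-0.56) were called (adjusted p = 0.0148 and 0.0213 by edgeR).

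A called difference with an estimate of at least 2-fold was found in 4 of the 321 members, against 2513 of the 66808 sequences tested. The threshold on both copies limits such differences among members. The 4 were Seq_50577 and 3 that were named after their values were seen. The p tests for any difference and not for the 2-fold size. Seq_21985 (1.06, SE 0.27) and Seq_27955 (1.10, SE 0.26) were higher forward, with edgeR adjusted p-values of 0.00918 and 0.00363, and were not called by DESeq2 (0.110 and 0.103). Seq_24390 was higher reverse (-1.11, SE 0.16, edgeR adjusted p = 7.44e-06). All 4 calls held with any 1 library left out. Seq_24390 forward fell from 2.63 in replicate 1 to 2.00 and 1.68, while its reverse copy had 3.21, 2.88 and 3.01. Across the 321 members, the orientation difference of replicate 1 correlated with the mean of replicates 2 and 3 at 0.663 (Pearson) and 0.632 (Spearman), and 177 members (55.1%) kept the same sign in all 3 replicates. The copies share their barcodes across replicates, and members are not independent replicates, so no p is given. Among members the strength in one orientation went with that in the other even between libraries with no shared counts. Forward S of replicate 2 and reverse S of replicate 3 had an r of 0.607, and the opposite pairing 0.656. Within an orientation, replicates 2 and 3 had an r of 0.831 forward and 0.838 reverse.

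Members were spread unevenly along the sequence numbers. The numbers 1 to 31000 held 253 members (78.8%), or 0.870% of their 29090 sequences meeting the DNA minimum. By range, 0.690% were members from 1 to 6000, 0.719% from 6001 to 12000, 0.964% from 12001 to 20000 and 0.980% from 20001 to 31000. The median S of all sequences with the DNA minimum in replicate 2 did not follow this order, at -0.01, 0.57, 0.14 and -0.15. From 31001 to 56000 there were 23 members among 23388 sequences (0.0983%), and from 56001 to 66000 there was 1 among 9618. From 66001 to 68000 there were 4 among 1852, and from 68001 on 40 among 1158 (3.45%).

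The densest stretch of 40 consecutive numbers was 68050 to 68089, where 32 sequences were members, 19 of them even-numbered and 13 odd-numbered. The other 8 all met the DNA minimum. Of these, 5 had an S of 2 or more in 1 copy of replicate 1 and 3 in neither. All 40 sequences were active in both later replicates. Their copies had a median S of 2.81 in replicate 2 (lowest 1.25, highest 4.51) and of 2.49 in replicate 3 (lowest 1.23, highest 3.79). The stretch held 6 of the 10 members with the highest weaker S in replicate 1, 11 of the first 20 and 15 of the first 50. Even numbers were the stronger, with medians of 3.06 against 2.38 for odd numbers in replicate 2 and of 2.73 against 2.16 in replicate 3. The interaction test called 1 of its 32 members forward and 1 reverse, and 24 of the 289 other members each way. Over all sequences tested, 16.5% were called forward and 4.84% reverse.

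At the lower border, Seq_68049 had 1.38 forward and 1.00 reverse in replicate 2, the member Seq_68050 had 1.41 and 2.16, and Seq_68051 had 3.08 and 2.90. At the upper border Seq_68089 had 2.20 and 2.82, Seq_68090 had 2.07 and 2.26, Seq_68091 had -0.54 and -0.90, and Seq_68092 had 1.07 and 1.50. Below the stretch, the 9 members from 67902 to 68032 were all even-numbered. They were weaker, with a median S of 2.15 in replicate 2 and 2.03 in replicate 3, and 3 of them had both copies at 2 or more in both. In the range from 68001 to 68049, even-numbered sequences had a median S of 1.90 in replicate 2 and odd-numbered ones of 0.90, and from 67901 to 68000 the values were 1.68 and 0.64. In replicate 3 they were 1.71 and 0.86, and 1.59 and 0.69. The sources used here do not say what the numbering stands for.

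Most members stood alone. Of the 321, 281 (87.5%) had no member at the next lower or higher number, and 40 fell into 11 runs of consecutive numbers, the longest of 8 (68066 to 68073). Only 5 of these runs lay below 68050. From 1 to 31000, members made up 0.844% of the sequences next to a member, against 0.870% of the whole range. The share was 2.12% at a distance of 2, 0.826% at 3, 3.36% (16 of 476) at 5 and 1.23% at 10, so it followed no order of distance. The non-member neighbours there at a distance of 1 had a median activity, as the mean S of both copies in replicates 2 and 3, of 0.27, against 0.07 for the range, and those at the other distances had 0.27 to 0.32. Seq_27637 is an example, since Seq_27636 had -0.47 and -0.90 in replicate 2 and Seq_27638 had -0.33 and -0.43, forward and reverse. Seq_10019 likewise had 3.41 and 3.13, between Seq_10018 at 0.30 and 1.15 and Seq_10020 at 0.52 and -0.93.

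From 31001 to 66000, 8 of 43 neighbours of a member at a distance of 1 were members (18.6%), and 4.35% at a distance of 2, against 0.0727% of the range. None was at 3, 5 or 10 (0 of 46 to 48). Each pair of members counts from both sides here. All of these pairs lie in the runs 37015 to 37016, 50577 to 50579 and 53998 to 53999. Non-member neighbours had a median of -0.28 at a distance of 1, -0.47 at 2, -0.53 at 3, -0.64 at 5 and -0.69 at 10, against -0.71 for the range. The run 50577 to 50579 rose steeply from Seq_50576, at -0.89 forward and -0.67 reverse in replicate 2. Seq_50577 had 4.30 and 2.36, Seq_50578 had 4.003 and 3.35, and Seq_50579 had 2.52 and 2.49. Seq_50580 had 0.95 and 1.80 and Seq_50581 -0.27 and -0.70, so activity fell over 3 numbers on this side.

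The pair Seq_53998 and Seq_53999 was similar. Seq_53998 forward had 6.96, 6.98 and 9.78 CPM in DNA and 83.4, 82.6 and 85.4 CPM in RNA, and its reverse copy had 5.56, 7.61 and 10.3 CPM in DNA and 106, 114 and 118 CPM in RNA. Seq_53999 forward had 4.61 and 6.11 CPM in DNA replicates 2 and 3 and 63.1 and 55.2 CPM in RNA. RNA values were within a narrow range and DNA rose in replicate 3 in each. Seq_53997 lay at 0.33 forward and 1.09 reverse in replicate 2. On the other side the orientations lay further apart in replicate 2. Seq_54000, no member because its forward copy had 1.84 in replicate 1, had 1.71 forward and 4.67 reverse in replicate 2, and Seq_54001 had -0.24 and 1.94. In replicate 3 Seq_54000 had 1.79 and 3.13, as the DNA counts of its reverse copy went from 78 to 223. Its difference of -1.96 (SE 0.54) was not called (edgeR adjusted p = 0.0517). That of Seq_54001 was called, at -1.89 (SE 0.18, edgeR adjusted p = 3.02e-09). At Seq_54002 both copies were low in replicate 2, at 0.16 and 0.13. In replicate 3, Seq_37015 had 2.32 forward and 2.30 reverse and Seq_37016 had 2.12 and 1.84. They lay between Seq_37014 at -0.67 and -0.76 and Seq_37017 at 0.70 and 1.10.

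Members carried a typical number of barcodes. The median forward member copy had 90 barcodes, with quartiles of 66 and 117 and extremes of 20 and 284. The median reverse copy had 99, with quartiles of 68 and 130 and extremes of 23 and 289. Over all copies of sequences meeting the DNA minimum, the medians were 84 and 92. The DNA minimum removes copies with few barcodes, and barcode number moves with DNA counts. The copies were therefore split by DNA replicate 1 counts into 4 sets of similar size. In the lowest set, member copies had a median of 53.5 barcodes and other copies 49. In the next 3 sets the medians were 74 and 77, 100 and 101, and 137 and 143. Member copies were 0.371%, 0.452%, 0.488% and 0.660% of the copies in these 4 sets, so members were more frequent at higher DNA counts. The barcodes themselves had a median GC content per copy of 38.9% forward and 39.1% reverse in members, and of 39.0% in both orientations over all. Barcodes 1 mismatch away from another of the same copy, which can arise from read errors, were 0.533% and 0.369% of those of forward and reverse member copies and 0.425% and 0.388% of all. Per barcode, a forward member copy had a median of 2.70 DNA counts and 48.8 RNA counts in replicate 2, against 2.43 and 6.13 over all forward copies.

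Copies with more barcodes varied less between replicates. S in replicate 2 minus S in replicate 3 had an SD across copies of 0.42 for the 65 member copies with 20 to 49 barcodes, 0.29 for the 297 with 50 to 99, 0.25 for the 261 with 100 to 199 and 0.21 for the 19 with 200 or more. The median standard error of the log2 fold change was 0.15, 0.12, 0.11 and 0.13 in these sets, so it did not fall further in the last. Median S in replicate 2 was 2.35, 2.46, 2.49 and 2.79, and it reached 2 or more in 76.9%, 87.2%, 87.7% and 100% of the copies. The mean S of replicates 2 and 3 and the barcode number had a Spearman correlation of 0.118 over the 642 member copies. All 321 members had at least 20 barcodes in both copies, and 281 had at least 50. Of these 281, 78.3% kept both copies at 2 or more in replicate 2, against 67.5% of the other 40. In replicate 3 the values were 53.4% and 50%.

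The members with the fewest and the most DNA counts were compared next. Seq_10010, with the fewest DNA counts in replicate 1 of any member, had 37 and 29 barcodes. Its forward copy had 64, 58 and 40 DNA counts and 875, 950 and 517 RNA counts, and its reverse copy 82, 54 and 67 DNA counts and 967, 695 and 698 RNA counts. Its log2 fold change in replicates 2 and 3 was 2.25 (SE 0.26) forward and 1.88 (SE 0.19) reverse. Seq_25484, with the most, had 284 and 289 barcodes, 833, 615 and 743 DNA counts forward and 1286, 1033 and 1331 reverse. Its S varied little, at 2.18, 2.20 and 1.96 forward and 2.54, 2.47 and 2.11 reverse, and its log2 fold changes were 2.08 (SE 0.11) and 2.28 (SE 0.13).

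In the authors' deposited table, which pools the 3 replicates and so includes the one of the rule, member copies had a signal of 1.56 to 4.24 with a median of 2.39. Of the 971 copies with a signal of 2 or more in the authors' deposited table, 567 were member copies. Among copies whose DNA count was 10 or more in all 3 libraries, 96 of the 100 highest signals in the authors' deposited table belonged to member copies.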

How the data were processed

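Each deposited DNA and RNA table holds raw counts per element copy, per the file headers. The authors' pooled table holds counts summed over replicates, CPM, their ratio and its log2, per the file headers; only its log2 signal was used. The deposited barcode table has 1 line per barcode. BWA 0.7.17 and hg38 appear in the submitters' processing notes without a role. The sources used here do not say whether reads or molecules were counted.

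S used library totals with no pseudocount. Counts were tested with edgeR 4.0.16 (R 4.3.3), robust quasi-likelihood, library totals as sizes, on replicates 2 and 3, for copies with at least 10 counts in both DNA libraries; each standard error was taken from the fold change and its F statistic. TMM, RLE, DESeq2 1.42.0, limma 3.58.1, other filters, a replicate block and left-out libraries were tried. Fits were tested on simulated data. All replicate pairs differed by more than sampling noise (chi-square divided by its degrees of freedom, 3.01 to 6.60). Sequences were named by rank in replicate 1: the 10 highest weaker S, the 5 largest excesses each way, 3 either side of the threshold, and the extremes of DNA counts; neighbours in number, the 8 that stayed below 2 and the 2-fold orientation calls were named after seeing values. The members and comparisons were chosen with earlier results of these data known.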

Additional observations from a re-analysis of the deposited data

How the results depend on the processing

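All 642 member copies were called higher under TMM, RLE, DESeq2, limma, no DNA filter, the barcode minimum, the replicate block and all 3 replicates, all 640 tested were with a filter of 50 DNA counts, and 640 to 642 were with 1 library left out, a setting chosen after seeing the data. Members at least 4-fold higher in both orientations numbered 171 to 246 with 1 library left out, and 170 and 247 had both copies at 2 or more in replicate 3 or 2 alone, where no test is possible (member copies, 444 and 557). Orientation calls were 15 forward by DESeq2 and 10 to 36 forward and 11 to 36 reverse with 1 library left out. TMM raised S by construction, giving a median of 2.72, 303 members kept in replicate 3, 917 members by the rule, 2623 copies at least 4-fold higher against 829 (2811 by RLE and 540 by limma with a pseudocount of 1), and 714 sequences so in both orientations against 242 (755 by RLE). The rule found 187 sequences on replicate 3, 1110 at an S of 1.5 and 115 at 2.5. The median forward minus reverse S was -0.037 against -0.01 with a pseudocount of 1 CPM. Over all sequences, forward calls were 5497 to 7293 with 1 library left out against 11056, and reverse calls 1483 to 2424 against 3234 (5131 with all 3 replicates); fewer or more libraries are the construction of these settings. The cause of the other shifts was not tested. Same-numbered DNA and RNA libraries had correlated deviations of 0.03 to 0.05, too weak to pair them, although all 6 correlated best with their own number, a hint from the data and not the design; with the replicate block, members called were 27 forward and 27 reverse, 511 copies at least 4-fold higher and 216 sequences so in both orientations, and Seq_68072 was called (0.74, edgeR adjusted p = 0.0187). DNA counts limit the precision of single copies.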

Other observations

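A further 9 sequences had an S of 2 or more in both orientations of replicate 1 but missed the minimum of 50 DNA counts in a copy. Both copies were at 2 or more in 2 of them in replicate 2 and in 3 in replicate 3. Each count includes Seq_67670, whose forward copy had 0 DNA counts and 20 and 10 RNA counts there, and so no finite S. Seq_23003 was at 2 or more in every copy of every replicate. It had 3.20, 2.11 and 3.06 forward on 47, 61 and 44 DNA counts, and 2.76, 2.60 and 2.07 reverse on 347, 317 and 408 DNA counts. Its log2 fold change in replicates 2 and 3 was 2.58 (SE 0.20) forward and 2.33 (SE 0.12) reverse. Seq_68596, with 1 barcode in its forward copy, had 3.39 there in replicate 1 on 10 DNA counts and 0.15 and 0.92 in replicates 2 and 3 on 44 and 46.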
